A study of Mus musculus with 36 samples.

Results

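The Wnt genes described here are 55 of the 49671 gene identifiers counted in the series. They are 17 Wnt ligands, 12 Frizzled and Lrp receptors, 4 genes of the R-spondin and Lgr group, 9 secreted antagonists, 3 membrane inhibitors, 5 intracellular components and 5 transcription factors. They were chosen from a list of names, matched by Ensembl identifier to gene symbols of GENCODE M21, by a rule that uses names only. This list, and the wider Wnt list and marker lists used below, were drawn up with earlier results of these data known. Their shares of called genes, set beside those of all genes, are therefore not independent of the data. All 55 were found in the tables, and their level was read in every group in CPM, a gene's count scaled to its library's total of gene-assigned reads (counts per megaread).

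The 36 RNA-seq libraries came from mouse embryonic stem cells that carry Mesp1, a transcription factor of nascent mesoderm, under doxycycline (dox) control. The cells were differentiated in hanging drops in medium with serum, and dox was used to switch the transgene on. All groups share this transgene, and no library of cells without it was analysed here, so an effect of dox itself was not measured apart from that of Mesp1.

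Batch 1 held wild-type (WT) cells at 0 h without dox, and at 12 h and 24 h with dox and without dox, with 2 libraries in each of the 5 groups, the hours being counted from a stage labelled d2-5. Batch 2 held WT cells at 24 h with dox (4 libraries), at 24 h without dox (2) and at 0 h (2). Batch 3 held Zic2 KO cells (2) and WT cells (2), both at 24 h with dox. A further 4 libraries came from stem cells kept in 2i medium, with dox (2) and without dox (2), and labelled 24 h. Day 4 cultures gave Flk1+/Pdgfra+ double positive cells (DP, 5 libraries), Flk1-/Pdgfra- double negative cells (DN, 3, numbered 3 to 5) and unsorted bulk cells (2). The bulk libraries also carry the mark ND, which the labels do not explain, and the condition field of the day 4 libraries does not say whether dox was added to them. The treatment text says that dox was added for every library, those labelled no dox included, so the groups follow the titles. For the 2i libraries the growth text repeats that of the hanging drops, and the medium given here follows their source name. Whether replicates came from separate cultures is not given, so the p-values cover only a library-to-library spread that may be technical.

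Gene-assigned reads ran between 12126604 and 51940589 per library, so that a single read was worth between 0.0193 and 0.0825 CPM. Mesp1 mRNA was at 183 and 348 CPM with dox in batch 1 at 24 h and at 41.5 and 45.2 CPM without dox, and in batch 2 it lay between 42.9 and 543 CPM with dox and at 0.8078 and 1.505 CPM without. The uninduced cells of batch 1 had therefore more Mesp1 mRNA than those of batch 2. In batch 2, 158 of 9159 genes well expressed in batch 1 were at 0 in all 8 libraries, so each batch was also fitted alone.

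Wnt ligands are secreted, lipid-modified proteins that bind Frizzled receptors, and in the canonical branch the co-receptors Lrp5 and Lrp6 as well. Receptor binding disarms a complex built on Axin that otherwise has β-catenin (Ctnnb1) destroyed, and β-catenin then enters the nucleus and switches on target genes with the transcription factors Lef1, Tcf7, Tcf7l1 and Tcf7l2. Several targets are themselves brakes on the pathway, among them Axin2, Nkd1, Apcdd1, Notum, Znrf3 and Dkk1. In the mouse embryo Wnt3 is needed to form the primitive streak, from which mesoderm leaves, and later heart formation is favoured where canonical signalling is held down and β-catenin-independent ligands such as Wnt5a and Wnt11 act.

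The stretch before the transcription start was looked up for the members, because Lef1 and the Tcf proteins bind a short DNA word and because Sp5, Axin2, Nkd1 and Wnt11 are the genes used below as readouts. Of the 55 members, 36 were matched in RefSeq's promoter table (GRCm38.p6), and 46 windows of the 250 bases before a start were searched. The words searched were CTTTGAA or CTTTGAT or CTTTGTA or CTTTGTT on both strands, none of which can overlap another on the same strand. The sequences of 4 windows follow, 5′ to 3′ on the gene's strand, in lower case with each matched word in capitals; a word read on the opposite strand appears as its reverse complement. None of these windows overlaps an annotated exon of GENCODE M21.
Sp5, chr2:70474673-70474922, plus strand: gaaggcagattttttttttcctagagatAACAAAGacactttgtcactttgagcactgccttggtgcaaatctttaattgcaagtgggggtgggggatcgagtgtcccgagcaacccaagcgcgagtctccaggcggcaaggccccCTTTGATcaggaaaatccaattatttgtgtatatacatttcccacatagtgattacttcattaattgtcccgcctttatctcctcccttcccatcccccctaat
Wnt11, chr7:98834862-98835111, plus strand: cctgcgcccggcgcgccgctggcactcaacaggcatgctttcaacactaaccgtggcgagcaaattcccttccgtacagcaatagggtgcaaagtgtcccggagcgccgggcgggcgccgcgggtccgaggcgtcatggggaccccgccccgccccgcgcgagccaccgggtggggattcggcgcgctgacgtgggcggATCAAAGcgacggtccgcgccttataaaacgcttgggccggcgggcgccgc
Axin2, chr11:108920099-108920348, plus strand: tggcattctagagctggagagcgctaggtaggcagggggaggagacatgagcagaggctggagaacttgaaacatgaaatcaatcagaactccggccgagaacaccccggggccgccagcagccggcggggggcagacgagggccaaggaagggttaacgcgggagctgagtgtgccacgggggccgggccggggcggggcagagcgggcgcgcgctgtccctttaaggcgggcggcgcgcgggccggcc
Nkd1, chr8:88527383-88527632, plus strand: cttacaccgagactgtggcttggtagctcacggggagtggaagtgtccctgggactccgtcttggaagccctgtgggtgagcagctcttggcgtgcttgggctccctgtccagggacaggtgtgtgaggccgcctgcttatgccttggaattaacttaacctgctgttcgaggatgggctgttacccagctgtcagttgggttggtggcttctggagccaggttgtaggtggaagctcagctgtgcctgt

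The Sp5 window held AACAAAG and CTTTGAT, the first letters lying 222 and 104 bases before the start. In the Wnt11 window ATCAAAG began 51 bases before the start of this transcript, and the window of its other listed start held no match. The Axin2 and Nkd1 windows held none of these letters, which says nothing about binding of the factors elsewhere in those genes. Among the 46 member windows 7 held at least 1 word, against 4874 of the 32851 windows of all genes (14.8%), and a match describes the letters only. The other windows with a word were those of Fzd7 and Dkk1 and 1 start each of Lef1, Wnt5b and Tcf7l2.

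Across the 36 libraries, 24 of the 55 members were at 1 CPM or more in every library and 22 passed 100 CPM in at least 1 library, while Wnt1, Wnt10a and Dkk2 stayed below 1 CPM in all of them. Ctnnb1 was the most abundant member, between 745 and 1380 CPM. Set per kilobase of exon so that genes can be ranked, Wnt8a led the ligands at 0 h, in the uninduced cells of batch 1 and batch 2, in bulk and in DN cells, with Wnt3 second at both ends of the batch 1 time course without dox (mean CPM per kb at 24 h of 29.0 for Wnt8a and 16.5 for Wnt3). Wnt5a led in every group that had received dox during differentiation (30.1 CPM per kb in batch 1 at 24 h, with Wnt2 second at 16.6). In DP cells Wnt3 and Wnt5a stood nearly level, at 19.1 and 18.8 CPM per kb. Among receptors Fzd7 led in every group outside 2i medium, and Fzd5 led in the 2i groups at 17.7 CPM per kb with dox and 21.6 without.

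**Figure D1:**
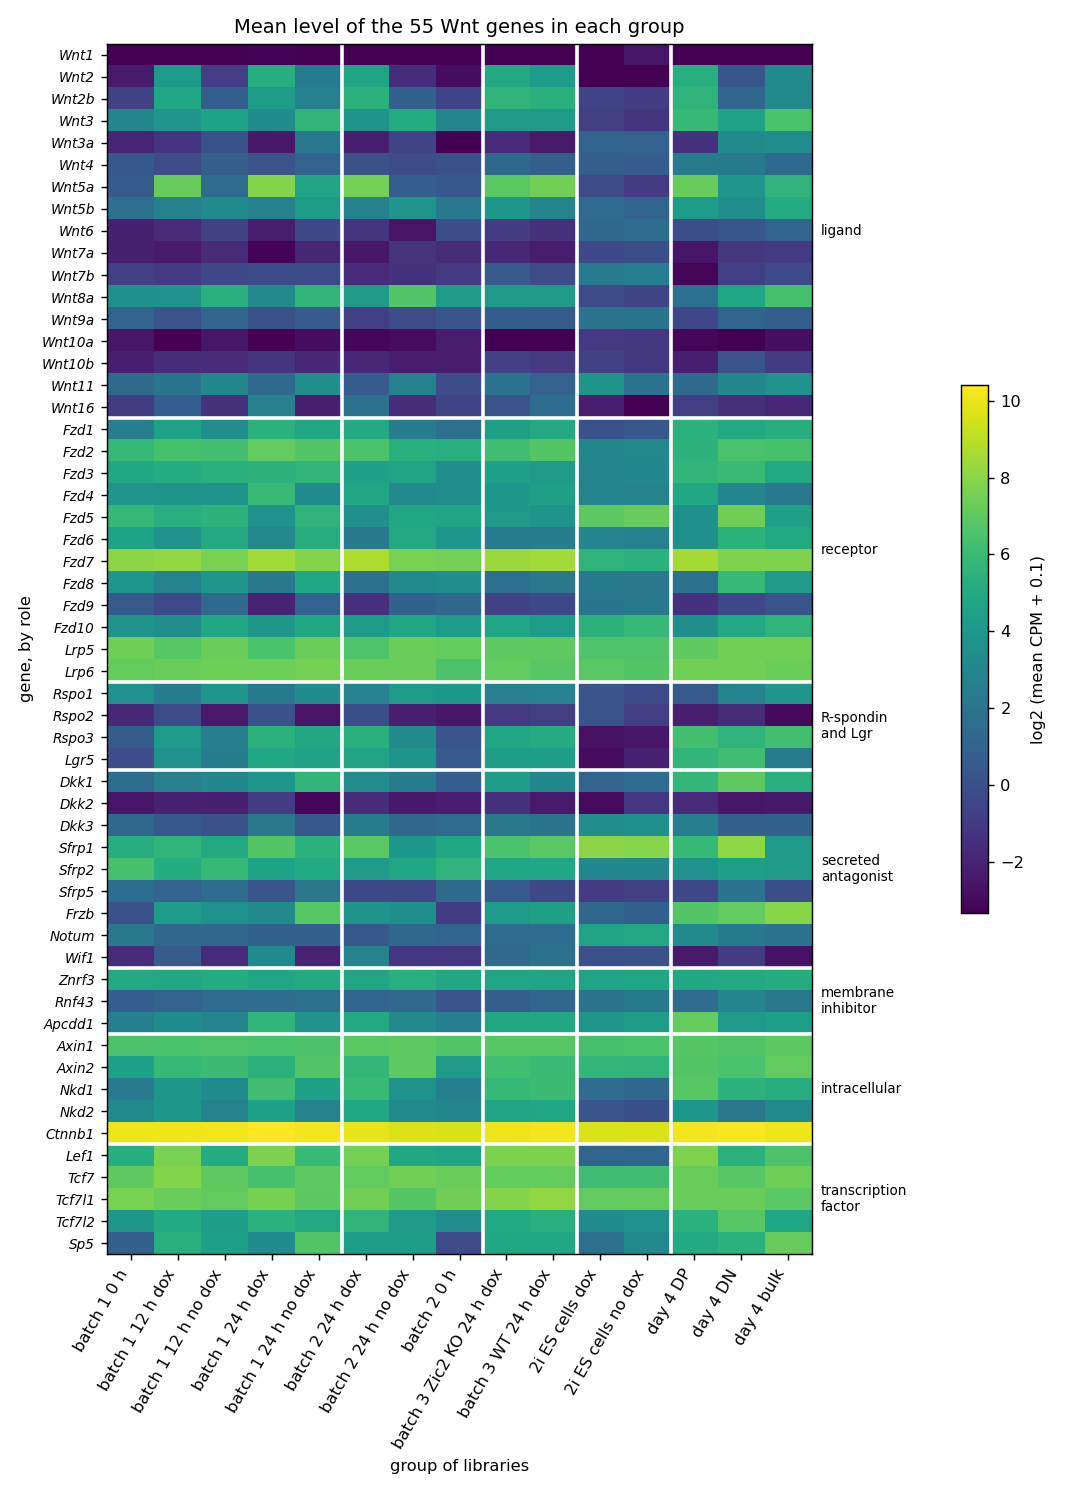
Heat map of the mean level of each of the 55 Wnt genes (rows, grouped by role) in each of 15 groups (columns, separated by batch), as log2 of mean CPM plus 0.1. Lef1 and Wnt5a are bright in the dox columns of batches 1 to 3 and in DP, Sfrp1 and Fzd5 are bright in the 2i columns, and Ctnnb1 is bright throughout.

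After 24 h with dox, cells had gained a different set of ligands from the one they had without it. Wnt5a, Wnt2, Wnt2b and Wnt16 rose and Wnt3, Wnt3a, Wnt8a, Wnt11 and Wnt5b fell. The transcription factor Lef1 and the feedback inhibitors Nkd1, Nkd2 and Apcdd1 rose while the target gene Axin2 fell, so genes usually read as outputs of the same pathway moved in opposite directions. Of the 50 members abundant enough to test, 20 rose (the background over all 18592 genes tested was 15.4%) and 16 fell (background 14.6%), by edgeR's quasi-likelihood test over batches 1 and 2 with an adjusted p below 0.05. Counting both directions, 36 of 50 members were called, against 30% of all genes. The median change of the tested members was −0.19 on the log2 scale, and that of all genes was 0.02. By role, 4 of 13 tested ligands rose and 5 fell, 4 of 12 receptors rose and 6 fell, and 3 of 8 secreted antagonists rose and 1 fell.

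Wnt5a (chromosome 14, 28504750 to 28527448, plus strand, GRCm38), a ligand known mainly for β-catenin-independent signalling, was at 205 and 266 CPM with dox in batch 1 and at 28.6 and 23.1 CPM without dox. In batch 2 it was at 193, 151, 200 and 206 CPM with dox, against 1.67 and 1.505 CPM without. Every library with dox lay far above every library without it, and the uninduced cells differed between batches more than the induced ones. Its log2 fold change was 4.61 ± 0.56 (SE; edgeR adjusted p = 6.47e-06). Wnt2 (chromosome 6, 17988940 to 18030585, minus strand), a ligand of the early heart-forming region, was at 40.8 and 34.2 CPM with dox and 6.74 and 3.69 CPM without in batch 1. In batch 2 it was at 22.01, 31.7, 19.4 and 30.7 CPM with dox and 0.173 and 0.314 CPM without. The groups were apart in both batches, with a log2 fold change of 4.13 ± 0.52 (edgeR adjusted p = 9.47e-06). Wnt2b showed the same order, at 19.7 and 18.6 CPM with dox against 6.65 and 6.18 CPM without in batch 1, and at 21.6 to 59.0 CPM with dox against 1.56 and 2.01 CPM without in batch 2 (3.09 ± 0.53, edgeR adjusted p = 0.000245). Wnt16 stayed low, at most 7.19 CPM with dox and 0.346 CPM without, and rose by 4.58 ± 0.58 (edgeR adjusted p = 1.06e-05).

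The ligands that fell included 3 that mark the posterior epiblast and the streak in the mouse embryo, Wnt3, Wnt8a and Wnt3a. Wnt3 (chromosome 11, 103774150 to 103817957, plus strand) was at 9.90 and 9.41 CPM with dox and 50.6 and 51.0 CPM without in batch 1. In batch 2 the values were 12.1, 20.7, 10.2 and 12.5 CPM with dox against 31.2 and 38.0 CPM without. The groups did not overlap in either batch, and Wnt3 fell by 1.77 on the log2 scale (SE 0.22, edgeR adjusted p = 7.6e-06). Wnt8a (chromosome 18, 34542313 to 34548273, plus strand), a ligand of the posterior epiblast and streak, was at 10.3 and 7.38 CPM with dox and 44.9 and 56.4 CPM without in batch 1. In batch 2 it was at 5.79, 28.6, 19.4 and 14.8 CPM with dox against 106 and 108 CPM without. Both batches again showed no overlap (−2.56 ± 0.35, edgeR adjusted p = 2.1e-05). Wnt3a, a ligand of the streak and the tail bud, was present at low level only, with at most 0.279 CPM in the 6 libraries with dox against 3.26 and 5.35 CPM without dox in batch 1 and 0.519 and 0.690 CPM without in batch 2 (−4.12 ± 0.86, edgeR adjusted p = 0.00127). Wnt11, a β-catenin-independent ligand with a role in heart development, was at 3.77 and 1.30 CPM with dox and 9.28 and 12.3 CPM without in batch 1, and at 0.696 to 2.10 CPM with dox and 5.48 and 7.65 CPM without in batch 2 (−2.07 ± 0.34, edgeR adjusted p = 0.000149). Wnt5b fell by 1.30 on the log2 scale. The 4 tested ligands without a call were Wnt4, Wnt6, Wnt7b and Wnt9a, of which none exceeded 2.03 CPM in a 24 h library of these batches.

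**Figure D2:**
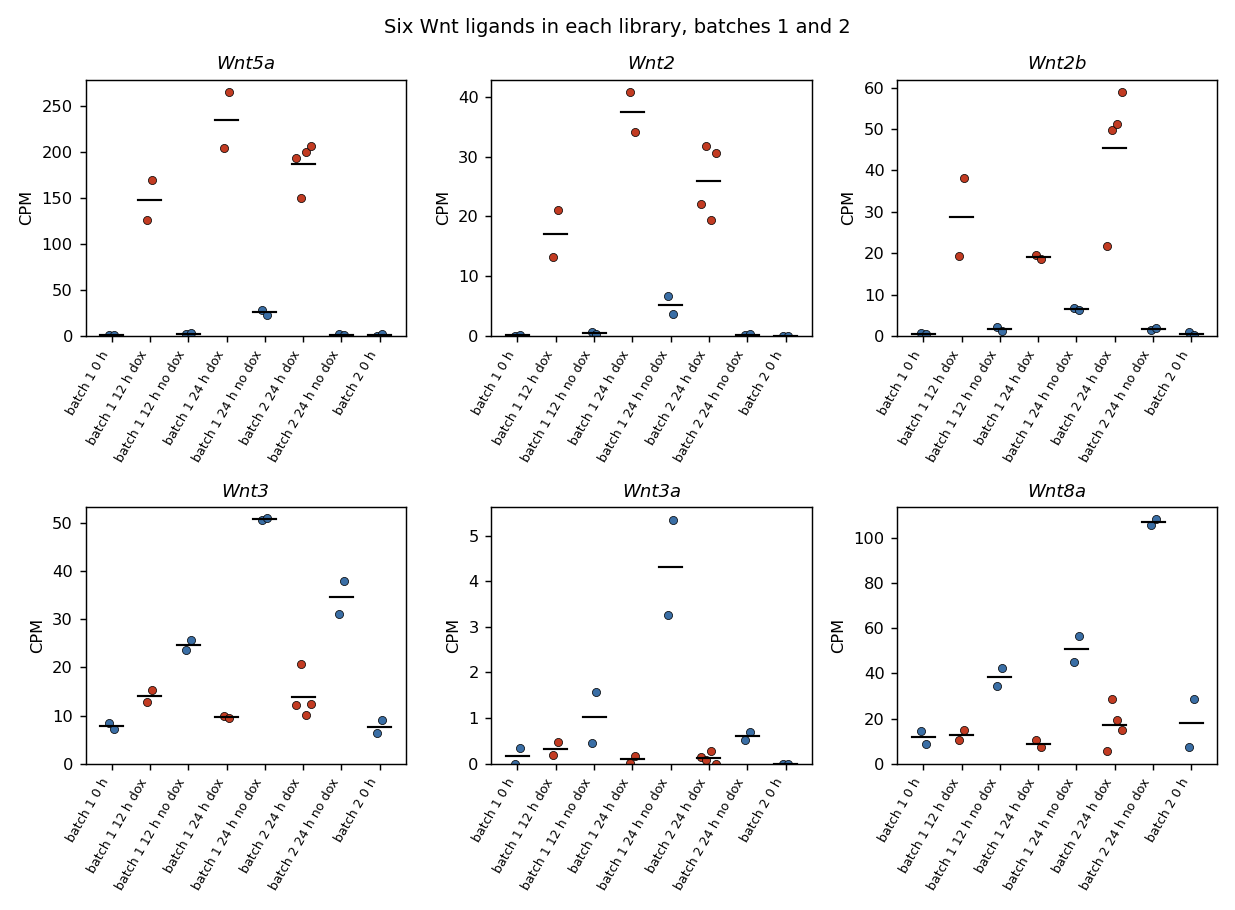
CPM of 6 Wnt ligands in every library of batches 1 and 2 (1 point per library, red with dox, blue without, horizontal line the group mean, linear axes starting at 0). Wnt5a, Wnt2 and Wnt2b are high in the dox libraries at 12 h and 24 h, and Wnt3, Wnt3a and Wnt8a are highest in the 24 h libraries without dox.

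Frizzled receptors were exchanged in the same way. Fzd4 was at 68.5 and 51.8 CPM with dox and 10.9 and 8.56 CPM without in batch 1, and at 40.6, 18.8, 24.5 and 21.8 CPM with dox against 10.3 and 8.09 CPM without in batch 2. No library with dox fell among those without (2.01 ± 0.23, edgeR adjusted p = 4.02e-06). Fzd6 was at 9.90 and 7.63 CPM with dox against 40.7 and 35.5 CPM without in batch 1, and at 4.25 to 4.61 CPM with dox against 30.8 and 32.0 CPM without in batch 2. The groups were far apart in both batches (−2.50 ± 0.13, edgeR adjusted p = 1.28e-09). The most abundant receptor, Fzd7, was at 311 and 421 CPM with dox and 223 and 240 CPM without in batch 1, and at 430, 386, 404 and 433 CPM with dox and 204 and 189 CPM without in batch 2 (0.95, edgeR adjusted p = 0.000103). Fzd5 fell (11.47 and 13.95 CPM with dox against 44.3 and 51.4 CPM without in batch 1; −1.45 ± 0.18, edgeR adjusted p = 7.42e-06), as did Fzd8 (−2.13 ± 0.21, edgeR adjusted p = 8.29e-07) and Fzd9, which did not exceed 2.32 CPM without dox at 24 h (−3.13 ± 0.37, edgeR adjusted p = 4.5e-06). Fzd1 and Fzd2 also rose and Fzd10 and the co-receptor Lrp5 also fell, while Lrp6 and Fzd3 were not called. Fzd10 overlapped between the groups. Its call was lost without batch 1 no dox library 2, batch 1 dox library 1 or batch 2 no dox library 2 (edgeR adjusted p up to 0.0885), and that of Fzd2 without batch 1 no dox library 1, batch 1 dox library 2, batch 2 dox libraries 1 or 2, or either batch 2 no dox library (up to 0.165).

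R-spondins sharpen the response to Wnt by binding Lgr receptors and removing the ubiquitin ligases Znrf3 and Rnf43, which otherwise take Frizzled off the surface. Rspo3 was at 46.2 and 43.3 CPM with dox and 30.8 and 27.8 CPM without in batch 1. In batch 2 it was at 30.7, 37.2, 49.6 and 49.6 CPM with dox, against 9.29 and 8.65 CPM without. The groups were apart in both batches (1.47 ± 0.29, edgeR adjusted p = 0.000853), and its level without dox differed between the batches. Rspo2 rose by 3.35 ± 0.46 (edgeR adjusted p = 2.29e-05) at a level of at most 1.25 CPM, and Rspo1 fell by 1.18 on the log2 scale. Lgr5 was above the libraries without dox in both batches but was not called (0.58, edgeR adjusted p = 0.058). Znrf3 fell by 0.42, a call lost without batch 1 dox library 1 or either batch 2 no dox library (edgeR adjusted p up to 0.103), and Rnf43 was not called.

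Among secreted antagonists, Wif1, which binds Wnt proteins outside the cell, was nearly absent without dox. It was at 9.31 and 8.76 CPM with dox and 0.193 and 0.119 CPM without in batch 1, and at 7.04, 6.47, 6.26 and 8.06 CPM with dox and 0.288 and 0.439 CPM without in batch 2. It rose by 4.93 ± 0.32 over both batches (edgeR adjusted p = 8.74e-09). Sfrp1, a secreted Frizzled-like protein that binds Wnts, was at 93.0 and 116 CPM with dox against 44.9 and 42.5 CPM without in batch 1, and at 127, 85.2, 134 and 125 CPM with dox against 20.1 and 12.2 CPM without in batch 2 (2.11 ± 0.28, edgeR adjusted p = 1.41e-05). Dkk3 rose by 1.45 and Sfrp2 fell by 0.55 on the log2 scale, though Sfrp2 overlapped between the groups and lost its call without any 1 of 7 of the 10 libraries at 24 h (edgeR adjusted p up to 0.141).

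Dkk1 binds Lrp5 and Lrp6, and Frzb binds Wnt ligands. Neither gave 1 answer over the batches. Dkk1 (chromosome 19, 30545863 to 30549665, minus strand) was at 16.6 and 12.3 CPM with dox and 55.9 and 49.2 CPM without in batch 1, but at 12.3, 12.1, 8.35 and 10.0 CPM with dox and 5.88 and 5.20 CPM without in batch 2. It was thus lower with dox in batch 1 and higher in batch 2, with no overlap in either. Frzb was at 8.23 and 9.98 CPM with dox and 99.3 and 127 CPM without in batch 1, and at 6.89, 23.2, 12.0 and 11.7 CPM with dox and 8.42 and 14.6 CPM without in batch 2, where the groups overlapped. Over both batches neither was called (Dkk1 −0.52, edgeR adjusted p = 0.451, and Frzb −1.58, edgeR adjusted p = 0.0786).

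The nuclear factors and feedback genes split. Lef1 (chromosome 3, 131110471 to 131224356, plus strand), a β-catenin partner that is itself a Wnt target, was at 150 and 258 CPM with dox and 53.6 and 71.0 CPM without in batch 1. In batch 2 it was at 163, 184, 214 and 181 CPM with dox, against 30.8 and 29.1 CPM without. All 6 libraries with dox lay above all 4 without (2.24 ± 0.23, edgeR adjusted p = 1.13e-06). Nkd1, which binds Dishevelled and dampens the pathway, was at 67.0 and 76.8 CPM with dox and 19.6 and 26.3 CPM without in batch 1, and at 88.6, 59.0, 42.5 and 58.9 CPM with dox and 11.1 and 15.6 CPM without in batch 2 (1.93, edgeR adjusted p = 4.19e-05). Its relative Nkd2 rose by 1.73 and the membrane inhibitor Apcdd1 by 1.90, both without overlap in either batch. Tcf7l2 and Tcf7l1 rose by 1.03 and 0.71, Tcf7 fell by 0.44 and Ctnnb1 rose by 0.25 on the log2 scale. Tcf7l1 overlapped between the groups and was not called without batch 1 no dox library 1 (edgeR adjusted p = 0.0511). The call of Ctnnb1 was lost without that library, batch 1 dox library 2 or either batch 2 no dox library (up to 0.104), and that of Tcf7 without any 1 of 7 libraries (up to 0.135).

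Axin2 (chromosome 11, 108920349 to 108950783, plus strand), the Axin paralogue usually used as a general reporter of canonical signalling, went the other way. It was at 39.5 and 51.0 CPM with dox against 84.8 and 125 CPM without in batch 1, and at 33.5, 82.5, 43.2 and 54.2 CPM with dox against 118 and 135 CPM without in batch 2. The groups were apart in both batches, and Axin2 fell by 1.19 on the log2 scale (SE 0.25, edgeR adjusted p = 0.00162). Sp5 (chromosome 2, 70474923 to 70477729, plus strand), whose promoter window carried both words above, was at 9.83 and 10.8 CPM with dox and 83.9 and 118 CPM without in batch 1. In batch 2 it was at 15.9, 42.2, 9.88 and 13.3 CPM with dox, within reach of the 13.2 and 26.0 CPM without dox. It was not called over both batches (−1.40, edgeR adjusted p = 0.0968). Axin1, the constitutive scaffold, was not called.

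**Figure D3:**
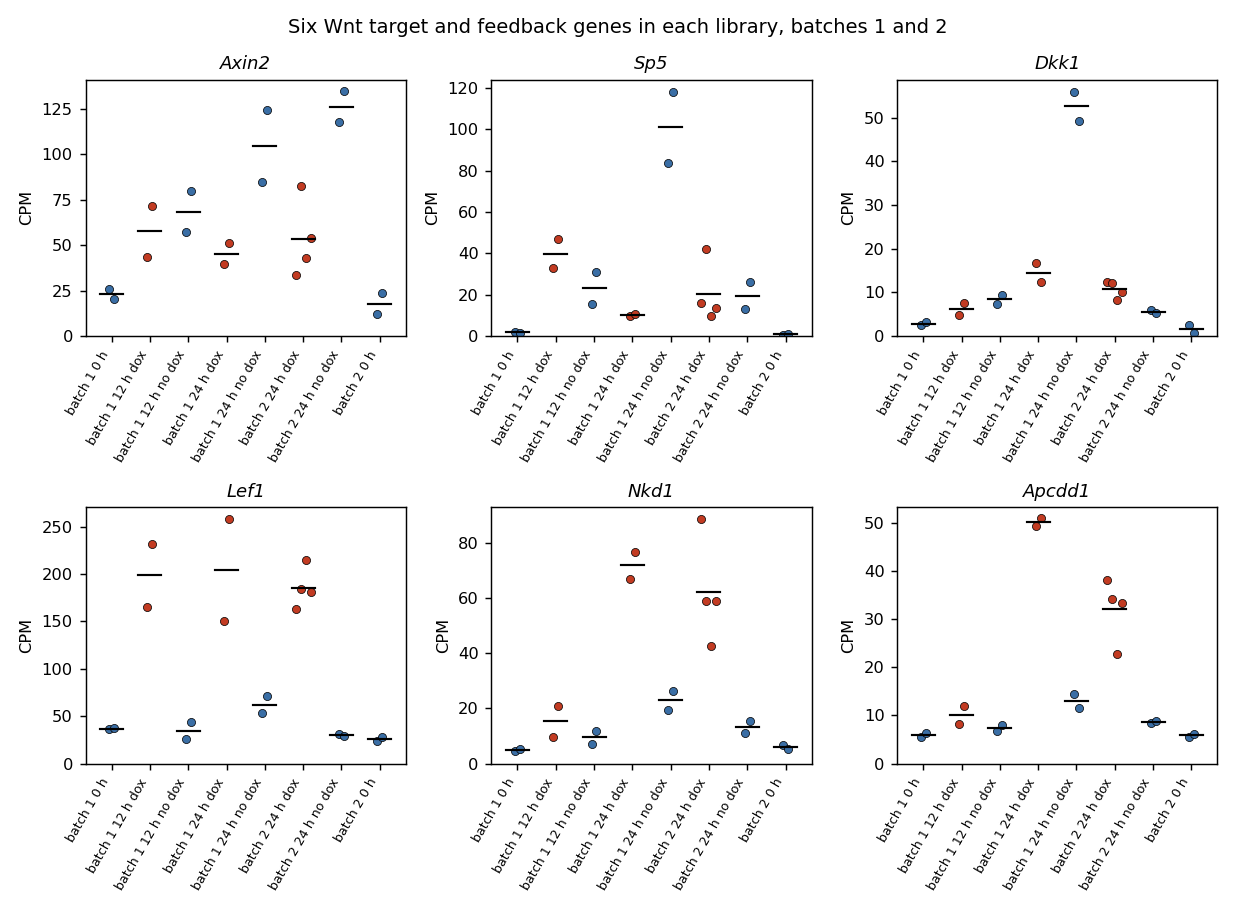
CPM of Axin2, Sp5, Dkk1, Lef1, Nkd1 and Apcdd1 in every library of batches 1 and 2 (1 point per library, red with dox, blue without, line the group mean, linear axes starting at 0). Lef1, Nkd1 and Apcdd1 are higher with dox at 24 h and Axin2 lower, while Sp5 and Dkk1 are highest in batch 1 at 24 h without dox.

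Whether the effect of dox differed between batches was tested directly. For 7 of the 50 members the log2 fold change was larger (that is, more positive) in batch 2 than in batch 1 (background 0.554%), and for 0 it was smaller (background 0.0753%). The difference was 3.70 ± 0.43 for Wnt5a (edgeR adjusted p = 0.000757), 3.92 ± 0.61 for Wnt2 (edgeR adjusted p = 0.00844), 3.12 ± 0.63 for Wnt2b (edgeR adjusted p = 0.0384) and 2.12 ± 0.39 for Fzd1 (edgeR adjusted p = 0.0204). Among antagonists it was 3.90 ± 0.63 for Frzb (edgeR adjusted p = 0.00888), 2.83 ± 0.48 for Dkk1 (edgeR adjusted p = 0.0121) and 1.62 ± 0.34 for Sfrp1 (edgeR adjusted p = 0.0468). The levels given above place the difference for Wnt5a, Wnt2, Dkk1 and Frzb in the libraries without dox, where batch 1 was higher, more than in those with dox. Summed levels of 6 markers of nascent and cardiac mesoderm, Mesp1 left out, were 316 to 366 CPM without dox in batch 1 and 36.9 to 44.0 CPM without dox in batch 2, and their part in the difference was not tested. The number of members called here fell to 1 without batch 2 no dox library 1, to 2 without batch 2 no dox library 2 or batch 1 dox library 1, and to 3 or 4 without any other single batch 1 library of 24 h.

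**Figure D4:**
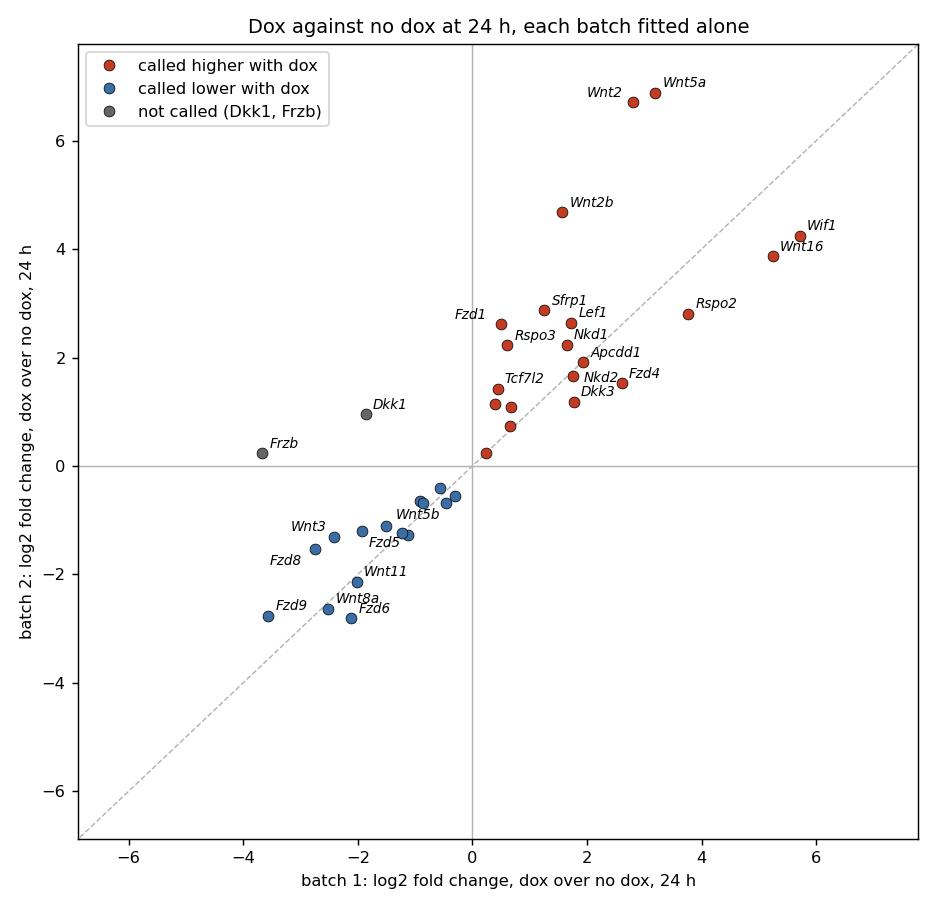
Log2 fold change of dox over no dox at 24 h fitted in batch 1 alone (horizontal axis) and batch 2 alone (vertical axis) for called members tested in both and for Dkk1 and Frzb, with the line of equal change dashed. Wnt5a, Wnt2 and Wnt2b lie well above the line, and Dkk1 and Frzb lie below 0 in batch 1 and above 0 in batch 2.

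The Wnt changes came with changes in cell type markers. At 24 h all 7 nascent and cardiac mesoderm markers were called higher with dox, 1 of which is Mesp1, the transgene itself, and all 5 primed epiblast markers, 5 of 6 primitive streak markers and 4 of 5 endoderm markers were called lower. Paraxial mesoderm had 5 of 6 markers higher and 1 lower. Other lists were mixed: neuroectoderm had 2 of 5 higher and 3 lower, and naive pluripotency 1 of 8 higher and 3 lower. Blood and endothelium had 2 of 6 higher and 1 lower, and no visceral endoderm marker was called. Summed primitive streak markers were at 115 to 133 CPM with dox and 1586 to 1709 CPM without in batch 1, and at 170 to 468 CPM with dox and 1085 to 1490 CPM without in batch 2, with no marker of the list at 0. Summed endoderm markers were at 38.0 to 46.1 CPM with dox and 379 to 382 CPM without in batch 1, and at 12.8 to 29.0 CPM with dox and 172 to 175 CPM without in batch 2. In such bulk RNA, fewer cells of a type and less RNA per cell cannot be told apart, and the part of these cell types in the Wnt changes was not tested.

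Of 58 tested genes of a wider Wnt list (secretion, intracellular relay, planar polarity and further antagonists), 8 rose (13.8%, against a background of 15.4%) and 16 fell (27.6%, against 14.6%) at 24 h. The antagonist Dkk4 fell by 5.52 (SE 0.77, edgeR adjusted p = 2.77e-05), the Dkk co-receptor Kremen2 by 2.33 (edgeR adjusted p = 0.000293) and Cer1, a secreted antagonist of the streak and endoderm, by 2.25 (edgeR adjusted p = 8.15e-05). The planar polarity genes Celsr2, Celsr1 and Vangl1 fell by 1.81, 1.23 and 0.90. Those that rose included the nuclear cofactor Pygo1 (2.24 ± 0.21, edgeR adjusted p = 3.61e-07), the Wnt-cleaving membrane protease Trabd2b (2.23 ± 0.35, edgeR adjusted p = 0.000106) and Wls, the carrier that brings Wnt proteins to the cell surface (0.63 ± 0.11, edgeR adjusted p = 0.000224).

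At 12 h, measured in batch 1 only, the ligand gain was already present and few losses were called. Of 50 tested members 9 rose (background 3.29%) and 3 fell (background 2.37%; 5.66% for both directions), with a median of −0.03. Wnt5a was at 127 and 170 CPM with dox and 2.52 and 2.88 CPM without (5.82 ± 0.82, edgeR adjusted p = 0.000293). Wnt2 was at 13.2 and 21.1 CPM with dox against 0.623 and 0.315 CPM without (5.12 ± 0.78, edgeR adjusted p = 0.00059), and Wnt2b at 19.4 and 38.1 CPM with dox against 2.08 and 1.26 CPM without (4.10 ± 0.76, edgeR adjusted p = 0.00285). Lef1 stood at 165 and 232 CPM with dox and 26.3 and 43.6 CPM without (2.53 ± 0.34, edgeR adjusted p = 0.000168). The groups were apart for all 4. None of Wnt3, Wnt3a and Wnt8a was called at 12 h, although Wnt3 and Wnt8a were lower with dox without overlap. Wnt3 was at 12.9 and 15.4 CPM with dox and 23.7 and 25.8 CPM without. Among cell type markers at 12 h, 4 of 6 for paraxial mesoderm and 3 of 7 for nascent and cardiac mesoderm, Mesp1 included, were called higher. Those called lower were 3 of 5 for primed epiblast, 2 of 5 for endoderm, 1 of 6 for primitive streak and 1 of 5 for neuroectoderm. The part of these markers in the Wnt changes was not tested.

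The other increases at 12 h were Wif1 (2.87 ± 0.46, edgeR adjusted p = 0.000853), Rspo2 (2.82 ± 0.59, edgeR adjusted p = 0.00677), Rspo3 (1.65 ± 0.42, edgeR adjusted p = 0.0271), Lgr5 (1.25 ± 0.34, edgeR adjusted p = 0.0357) and Nkd2 (1.19 ± 0.22, edgeR adjusted p = 0.003). Rspo1, the other gene of the R-spondin and Lgr group, fell by 1.45 (SE 0.27, edgeR adjusted p = 0.00331). Lgr5, the receptor that marks many Wnt-responsive stem cells, was at 11.3 and 14.7 CPM with dox against 5.16 and 5.98 CPM without. Fzd6 fell by 1.25 (SE 0.20, edgeR adjusted p = 0.000873) and Fzd9 by 1.76 (SE 0.47, edgeR adjusted p = 0.0329). Wnt8a was at 10.5 and 14.9 CPM with dox against 34.5 and 42.5 CPM without, apart but not called (−1.58, edgeR adjusted p = 0.118). Axin2 overlapped between the groups, at 43.7 and 71.5 CPM with dox and 57.0 and 79.8 CPM without, and Sp5 was at 32.7 and 47.1 CPM with dox and 15.4 and 31.1 CPM without. Neither was called (Axin2 −0.23 and Sp5 0.80). Leaving out no dox library 2 reduced the increases to 5 (Wnt2b then had edgeR adjusted p = 0.0627), and leaving out dox library 1 reduced the decreases to 1. Without single 12 h libraries the calls of Fzd9, Rspo3, Lgr5, Nkd2, Rspo2 and Rspo1 were also lost, Fzd9 without any of the 4 (edgeR adjusted p up to 0.3), Rspo3 and Lgr5 without any but dox library 1 (up to 0.445), Nkd2 without no dox library 1 or dox library 2 (up to 0.0716), Rspo2 without no dox library 2 (0.0858) and Rspo1 without dox library 1 (0.0772).

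The change between the 12 h and 24 h effects of dox was tested itself and was called for 1 member in each direction (background 0.194% higher and 0.328% lower). Fzd4 was at 13.7 and 13.4 CPM with dox at 12 h, against 14.4 and 12.96 CPM without, and only the 24 h libraries differed, so its effect grew by 2.00 ± 0.40 (edgeR adjusted p = 0.0363). The decrease of Fzd6 deepened by 1.25 on the log2 scale (SE 0.24, edgeR adjusted p = 0.028). Both calls were lost when any single 12 h library was left out. Within batch 1 alone 3 members were called larger and 9 smaller, where 0.906% of all genes were called larger and 2.53% smaller. Wnt5a was among the smaller there (−2.63), since its level without dox stood at 28.6 and 23.1 CPM at 24 h against 2.52 and 2.88 CPM at 12 h. Sp5 (−4.11) and Frzb (−4.27) were also smaller there, and Wif1 (2.84) and Apcdd1 (1.45) larger.

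Without dox, more Wnt genes were higher than lower after 24 h of differentiation. Comparing 24 h with 0 h, 23 of 50 tested members rose (background 13.5%) and 3 fell (background 11.7%; 25.1% for both directions), with a median of 0.41 for the members and 0.01 for all genes. By role, 8 of 13 ligands, 5 of 12 receptors and both Rspo3 and Lgr5 rose. Scaling by library totals alone shifted the split of all calls to 3029 higher and 1680 lower, against 2503 higher and 2172 lower as fitted, and left the members at 23 higher and 2 lower. These libraries without dox at 24 h are the same ones that the dox effect was measured against, so a change seen in both comparisons is not seen independently.

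Wnt3 was at 50.6 and 51.0 CPM at 24 h and 8.39 and 7.11 CPM at 0 h in batch 1, and at 31.2 and 38.0 CPM at 24 h and 6.31 and 9.11 CPM at 0 h in batch 2. It rose by 2.40 ± 0.25 (edgeR adjusted p = 8.7e-06) with no overlap. Axin2 was at 84.8 and 125 CPM at 24 h and 26.1 and 20.6 CPM at 0 h in batch 1, and at 118 and 135 CPM at 24 h and 11.9 and 23.7 CPM at 0 h in batch 2 (2.41, edgeR adjusted p = 4.53e-05). Placed beside these, the 24 h libraries with dox had 9.41 to 20.7 CPM of Wnt3 and 33.5 to 82.5 CPM of Axin2. Sp5 was at 83.9 and 118 CPM at 24 h and 1.96 and 1.53 CPM at 0 h in batch 1, and at 13.2 and 26.0 CPM at 24 h against 0.608 and 0.927 CPM at 0 h in batch 2 (5.35 ± 0.74, edgeR adjusted p = 0.000103). It rose in both batches, to levels that differed between them.

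Frzb rose by 6.12 ± 0.80 over both batches (edgeR adjusted p = 7.1e-05). Lgr5 was at 26.5 and 22.2 CPM at 24 h and 0.783 and 0.907 CPM at 0 h in batch 1, and at 15.5 and 12.2 CPM at 24 h against 0.684 and 2.01 CPM at 0 h in batch 2 (4.06 ± 0.29, edgeR adjusted p = 2.91e-07). Rspo3 rose by 3.69 ± 0.37 (edgeR adjusted p = 5.89e-06), Dkk1 by 3.29 ± 0.53 (edgeR adjusted p = 0.000337), Wnt2 by 4.93 ± 0.90 (edgeR adjusted p = 0.000942), Wnt3a by 4.46 ± 0.91 (edgeR adjusted p = 0.00218) and Wnt5a by 3.04 ± 0.67 (edgeR adjusted p = 0.00345). Wnt5a overlapped between the times: in batch 2 it was at 1.67 and 1.505 CPM at 24 h and at 0.456 and 2.08 CPM at 0 h. In batch 2 alone Wnt5a and Wnt2 were not called (0.27, edgeR adjusted p = 0.764, and 2.37, edgeR adjusted p = 0.209). There 9 members rose, as did 468 of all 15188 genes tested. The remaining increases, between 0.44 and 2.85 on the log2 scale, were those of Wnt2b, Wnt11, Wnt8a, Wnt5b, Fzd1, Nkd1, Fzd3, Rnf43, Tcf7l2, Fzd6, Fzd10, Apcdd1 and Lrp6. The 3 members that fell were Sfrp2 (−1.13 ± 0.22, edgeR adjusted p = 0.00151), the repressive factor Tcf7l1 (−0.73 ± 0.21, edgeR adjusted p = 0.0182) and Dkk3 (−0.68 ± 0.23, edgeR adjusted p = 0.0412). Leaving out batch 1 0 h library 2, batch 1 24 h library 1 or batch 2 24 h library 2 left 1 of these calls, that of Sfrp2. The calls of Fzd10 (edgeR adjusted p up to 0.117) and Lrp6 (up to 0.0723) among the increases also depended on single libraries.

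In the wider list 21 of 58 genes rose (36.2%, against a background of 13.5%) and 4 fell (6.9%, against 11.7%) over the same interval. Wls rose by 1.70 ± 0.12 (edgeR adjusted p = 2.62e-07) and Porcn, the enzyme that attaches the lipid to Wnt proteins, by 1.44 ± 0.27 (edgeR adjusted p = 0.00105). Ror2, a receptor for Wnt5a, rose by 1.72 ± 0.28 (edgeR adjusted p = 0.000433) and Cer1 by 5.84 ± 0.49 (edgeR adjusted p = 1.48e-06). Cell type markers moved over the same interval. All 6 primitive streak markers, all 5 endoderm markers, 6 of 7 nascent and cardiac mesoderm markers and 3 of 6 paraxial mesoderm markers were called higher at 24 h. Those called lower included 4 of 8 naive pluripotency, 2 of 5 primed epiblast and 3 of 5 neuroectoderm markers. Another neuroectoderm marker was called higher, and blood and endothelium had 1 of 6 higher and 1 lower. The part of these markers in the Wnt changes was not tested.

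Cells labelled Zic2 KO, for a zinc finger transcription factor, were compared with WT cells, both with dox. Zic2 mRNA was still counted in both libraries labelled Zic2 KO, at 73.0 and 56.4 CPM against 108 and 74.7 CPM in WT, a difference that was not called, and whether the edit leaves a transcript is not given in the sources used here. Mesp1 mRNA was at 84.5 and 109 CPM in the libraries labelled Zic2 KO and at 120 and 248 CPM in WT. No Wnt member passed the test by edgeR (0 of 47, and 0 of all 16518 genes), and none did by DESeq2, which called 5 genes of any kind. Without adjustment, edgeR gave p below 0.05 for 4 members, with Dkk1 higher in the libraries labelled Zic2 KO and Wnt5a, Fzd2 and Tcf7l1 lower. Dkk1 was at 21.5 and 20.5 CPM in those libraries and at 5.02 and 11.54 CPM in WT (1.35, edgeR unadjusted p = 0.0169). Wnt5a was at 118 and 116 CPM in those libraries and at 207 and 148 CPM in WT, and Sp5 was at 24.6 and 32.2 CPM, inside the wide spread of WT at 6.12 and 49.3 CPM.

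2i medium as usually made contains an inhibitor of GSK3, the kinase that marks β-catenin for destruction. In it edgeR as fitted, with the filter on low counts and without the replicate number as a block, called no gene between dox and no dox. That holds for Mesp1 itself, at 85.4 and 119 CPM with dox and 1.09 and 0.613 CPM without (6.90, edgeR adjusted p = 0.146), so a missing call shows little here. Without the block, 0 of the 46 tested members were called by edgeR, as were 0 of all 18534 genes, and DESeq2 called 47 genes, none of them members. With the block, edgeR called 633 genes, among the members Wnt11 as higher and Sp5 and Fzd10 as lower. The 2 same-numbered pairs correlate at 0.837, but the labels give them no shared source. Wnt5a, the most abundant ligand per kilobase with dox in differentiating cells, was at 0.624 and 1.02 CPM with dox and at 0.291 and 0.511 CPM without in 2i. Wnt2 had no count in any of the 4 libraries, which allows at most 3 counts a library. Lef1 was at 1.09 and 3.06 CPM with dox and at 1.82 and 2.45 CPM without. The only member with an unadjusted p below 0.05 without the block was Wnt11, at 11.4 and 15.7 CPM with dox and 2.11 and 5.00 CPM without dox (1.87 ± 0.46). Sp5 was at 1.92 and 4.56 CPM with dox against 5.31 and 13.7 CPM without dox, also apart and not called without the block.

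Some Wnt genes were abundant in 2i medium whether or not dox was added. Axin2 was at 58.6 and 48.4 CPM with dox and 48.6 and 54.7 CPM without, while Lef1 stayed near 1 to 3 CPM. Sfrp1 was at 218 and 308 CPM with dox and 195 and 294 CPM without, and Fzd5 at 126 and 118 CPM with dox and 129 and 170 CPM without. Notum, the extracellular enzyme that strips the lipid from Wnt proteins, was at 17.1 and 33.8 CPM with dox and 19.7 and 43.2 CPM without, against at most 12.7 CPM in any library outside 2i. The 2i libraries form no batch with the others, so medium, stage and batch cannot be told apart in these levels. About 38.1% of Notum's exon length is shared with another annotated gene, and how the counting treated strand is not given in the sources used here.

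On day 4, cells sorted for both Flk1 and Pdgfra, receptors of cardiovascular mesoderm, carried Wnt2, Wnt2b, Wnt5a, Lef1 and Apcdd1, and the DN cells carried Wnt8a, Wnt3a, Fzd5, Fzd8 and Sfrp1. DP libraries 3 to 5 were compared with DN libraries 3 to 5. Of 45 tested members 11 were higher in DP cells (background 9.41%) and 14 lower (background 16.2%, and 25.6% for both directions). Every called member had groups that did not overlap, but how many of all called genes do so was not counted. The median was 0.07 for the members and 0.01 for all genes. The ligands higher in DP were Wnt2, Wnt2b and Wnt5a, and those lower were Wnt3a and Wnt8a. Without the replicate pairing, none of the 7 tested secreted antagonists was called higher in DP and 4 were lower. With it Dkk3 and Notum were called higher and Dkk1 was no longer called.

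Wnt2 was at 41.5, 36.0 and 49.0 CPM in DP libraries 3 to 5, against 1.54, 1.503 and 0.537 CPM in DN. Every DP library lay far above every DN library, with a log2 fold change of 5.16 ± 0.31 (edgeR adjusted p = 9.44e-05). Wnt5a was at 119, 187 and 145 CPM in DP against 10.3, 18.9 and 14.1 CPM in DN (3.41 ± 0.28, edgeR adjusted p = 0.000327), and Wnt2b was at 31.2, 70.5 and 48.6 CPM in DP against 2.05, 3.01 and 1.84 CPM in DN (4.48 ± 0.37, edgeR adjusted p = 0.000338). Wnt8a ran the other way, at 2.69, 3.22 and 2.89 CPM in DP and 21.7, 37.3 and 22.6 CPM in DN (−3.18 ± 0.27, edgeR adjusted p = 0.000306). Wnt3a was at 0.395, 0.150 and 0.412 CPM in DP and 7.18, 5.62 and 15.1 CPM in DN (−4.81 ± 0.55, edgeR adjusted p = 0.000886).

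Of the receptors, Fzd5 was at 11.6, 8.15 and 19.4 CPM in DP and 248, 85.7 and 181 CPM in DN (−3.68 ± 0.46, edgeR adjusted p = 0.00157). Fzd8 was at 4.59, 1.94 and 5.61 CPM in DP and 81.7, 32.1 and 62.0 CPM in DN (−3.82 ± 0.45, edgeR adjusted p = 0.00126). Every DP library was below every DN library for both genes. Fzd6 (−1.82 ± 0.19, edgeR adjusted p = 0.00064), Fzd10 and Fzd2 were lower as well. Fzd7 (0.91 ± 0.20, edgeR adjusted p = 0.0145) and Fzd1 (0.63, edgeR adjusted p = 0.00609) were higher in DP. Among antagonists Sfrp1 was at 50.9, 38.9 and 84.9 CPM in DP and 341, 139 and 321 CPM in DN (−2.16 ± 0.40, edgeR adjusted p = 0.00787). Sfrp5 (−2.21 ± 0.38, edgeR adjusted p = 0.00487), Sfrp2 and Dkk1 were also lower, and Rspo1 was lower by 2.29 on the log2 scale (SE 0.32, edgeR adjusted p = 0.00182). Rnf43 was lower and Rspo3 higher in DP. Single libraries left out of the DP or DN group ended the calls of Dkk1, Rspo3, Fzd2, Rnf43, Fzd10, Sfrp2 and Fzd7, with edgeR adjusted p up to 0.131, and DN library 5 did so for each of the 7.

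Apcdd1 was at 189, 69.9 and 190 CPM in DP and 14.8, 18.3 and 16.4 CPM in DN (3.21 ± 0.39, edgeR adjusted p = 0.00136). Lef1 was at 191, 227 and 265 CPM in DP against 40.8, 46.9 and 46.5 CPM in DN (2.38 ± 0.15, edgeR adjusted p = 0.000129). Nkd2 (1.83 ± 0.24, edgeR adjusted p = 0.0016), Nkd1 (1.48 ± 0.28, edgeR adjusted p = 0.00807) and Tcf7 were higher in DP, and Tcf7l2 was lower (−1.32 ± 0.17, edgeR adjusted p = 0.00143). Axin2 was at 112, 134 and 128 CPM in DP and 59.7, 116 and 83.8 CPM in DN, overlapping and not called without the replicate pairing.

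The DP and DN libraries of the same number varied together, so the comparison was also fitted with the replicate number as a block. That fit called 14 members higher and 16 lower, and it called more genes of every kind (19.7% of all genes higher and 23.3% lower, against 9.41% and 16.2% without the block). It added Wnt3 (1.51, edgeR adjusted p = 2.82e-05), Wnt5b (0.84), Dkk3 (1.33), Notum (1.03) and Axin2 (0.60, edgeR adjusted p = 0.0312) as higher in DP and Wnt9a (−1.35), Wnt11 (−1.27) and Lrp5 (−0.30) as lower. It no longer called Fzd7 (0.88, edgeR adjusted p = 0.0869), Rspo3 (0.59, edgeR adjusted p = 0.0813) or Dkk1 (−1.05, edgeR adjusted p = 0.1). Wnt3 was at 45.9, 116 and 38.4 CPM in DP libraries 3 to 5 and 14.3, 41.9 and 15.7 CPM in DN, so that in each numbered pair the DP library was higher.

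No library is shared between the 24 h dox comparison and that of DP with DN, and their calls can be counted together. Of the 20 members that rose with dox 10 were higher in DP, which is 10 of the 11 members higher in DP: Wnt2, Wnt2b, Wnt5a, Fzd1, Fzd7, Rspo3, Lef1, Nkd1, Nkd2 and Apcdd1. Over the 16173 genes tested in both comparisons, 724 of the 1562 higher in DP also rose with dox (46.4%, and 28.9% of the 2505 that rose with dox). Of the 16 that fell with dox 8 were among the 14 lower in DP, namely Wnt3a, Wnt8a, Fzd5, Fzd6, Fzd8, Fzd10, Sfrp2 and Rspo1. Over all genes 1292 of the 2619 lower in DP also fell with dox (49.3%, and 53.9% of the 2399 that fell with dox). Whether the members differ from all genes in this was not tested. Sfrp1, Tcf7l2 and Fzd2 rose with dox and were lower in DP, and Tcf7 fell with dox and was higher in DP. Whether the 2 comparisons differ for these 4 genes was not tested as a single contrast. The DP calls counted here come from the fit without the replicate block. With the block, Fzd7 and Rspo3 were no longer called. Wnt3, Wnt5b and Axin2, which fell with dox, were then called higher in DP. Dkk3, which rose with dox, was also called higher, and Wnt11 and Lrp5, which fell with dox, were called lower. Markers that the sort did not use moved as well: all 5 nascent and cardiac mesoderm markers other than Kdr (Flk1) and Pdgfra were called higher in DP, while all 5 endoderm markers were called lower. Of the other lists, primed epiblast had 4 of 5 lower, and naive pluripotency 2 higher and 4 lower of 6 tested. Paraxial mesoderm had 1 of 5 tested markers higher, and blood and endothelium 1 of 6 higher and 1 lower. Summed endoderm markers were at 17.7 to 63.7 CPM over the 5 DP libraries and 818 to 953 CPM in DN, and their part in the Wnt differences was not tested.

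Against unsorted bulk cells, DP libraries 1 and 2 showed 16 of 50 tested members higher (background 22.9%) and 21 lower (background 28.8%; 51.7% for both directions). With so many genes called in all, the share of members called says little by itself. All 5 endoderm markers, 4 of 5 primed epiblast markers and 3 of 6 primitive streak markers were called lower in DP, and 3 of 5 nascent and cardiac mesoderm markers other than the sorted Kdr and Pdgfra were called higher. Summed endoderm markers were at 17.7 to 63.7 CPM over the 5 DP libraries and 324 to 381 CPM in bulk, and the part of these cell types in the Wnt differences was not tested. Scaling by library totals alone put the median of all genes at −0.18, against −0.02 as fitted, and gave 12 members higher and 21 lower, Lrp6, Dkk1, Nkd2 and Ctnnb1 no longer being called. The split of all calls was then 2882 higher and 6795 lower, against 4437 higher and 5573 lower as fitted. Of 15 tested ligands 9 were called lower, Wnt7a, Wnt7b and Wnt10b among them at a few counts, and Wnt2, Wnt2b and Wnt5a were called higher. Wnt3a was at 0.170 and 0.352 CPM in DP and 9.99 and 10.9 CPM in bulk (−5.12 ± 0.29, edgeR adjusted p = 9.78e-05), and Wnt8a was at 4.25 and 2.67 CPM in DP and 94.3 and 73.4 CPM in bulk (−4.45 ± 0.26, edgeR adjusted p = 0.000165). Wnt11 was at 1.70 and 1.31 CPM in DP and 13.1 and 11.7 CPM in bulk (−2.88 ± 0.21, edgeR adjusted p = 0.000241). Wnt7a, Wnt7b and Wnt10b were also called lower, from 2, 2 and 3 counts over both DP libraries against 41, 74 and 41 counts in bulk. They could be tested only through the bulk libraries, so a lower call was the only one open to them. The bulk libraries were deeper, with at least 50260410 gene-assigned reads each, against at most 19874949 in a DP library. In CPM, Wnt7a was at 0 and 0.101 in DP and 0.385 and 0.418 in bulk, Wnt7b at 0 and 0.101 against 0.770 and 0.677, and Wnt10b at 0.0567 and 0.101 against 0.404 and 0.398.

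Other losses in DP against bulk were Rspo1 (−3.28 ± 0.39, edgeR adjusted p = 0.00186), Wnt6 (−2.66 ± 0.37, edgeR adjusted p = 0.00294), Fzd9 (−2.55 ± 0.43, edgeR adjusted p = 0.00566) and Sp5, which was at 35.4 and 15.8 CPM in DP and 135 and 163 CPM in bulk (−2.38 ± 0.42, edgeR adjusted p = 0.0105). Wnt2 was at 35.9 and 40.5 CPM in DP and 7.14 and 11.1 CPM in bulk (2.22 ± 0.22, edgeR adjusted p = 0.00107). Wnt5a was at 165 and 119 CPM in DP and 35.1 and 62.0 CPM in bulk (1.71 ± 0.34, edgeR adjusted p = 0.0151). Sfrp1 was higher in DP than in bulk (52.8 and 66.6 CPM against 16.3 and 17.6 CPM; 1.97 ± 0.13, edgeR adjusted p = 0.000159), although it was lower in DP than in DN. Apcdd1 (2.59 ± 0.50, edgeR adjusted p = 0.0138), Wnt2b (2.57 ± 0.49, edgeR adjusted p = 0.014), Dkk3 (2.23 ± 0.57, edgeR adjusted p = 0.0292), Lgr5 (3.29 ± 0.76, edgeR adjusted p = 0.0232) and Fzd4 (3.03 ± 0.82, edgeR adjusted p = 0.0373) were higher too. Nkd1, Lef1, Tcf7l2, Fzd3, Nkd2, Lrp6, Dkk1 and Ctnnb1 were higher by between 0.26 and 1.52 on the log2 scale. For Lgr5, Fzd4, Tcf7l2, Fzd3, Dkk1 and Ctnnb1, as for Sfrp1, both bulk libraries lay below every DN library as well. Lgr5 was at 5.10 and 4.86 CPM in bulk and at 53.7 to 86.8 CPM in DN. For these genes a higher level in DP than in bulk does not set DP cells apart from DN cells. Fzd8, Fzd10, Wnt9a, Fzd6, Fzd2, Fzd5, Wnt5b, Sfrp2, Lrp5 and Znrf3 were lower, with log2 fold changes between −2.36 and −0.31. Leaving out bulk library 1 reduced the calls to 5 higher and 13 lower, and leaving out bulk library 2 to 7 higher and 14 lower (26.3% and 26.9% of all genes were then called), both without Lgr5, Fzd4, Apcdd1, Wnt2b, Dkk3 and Sp5 (edgeR adjusted p up to 0.423). Axin2, lower in DP here (−0.60, edgeR adjusted p = 0.00605), stood level with bulk when DP libraries 3 to 5 took the place of 1 and 2 (0.0036, edgeR adjusted p = 0.98).

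**Figure D5:**
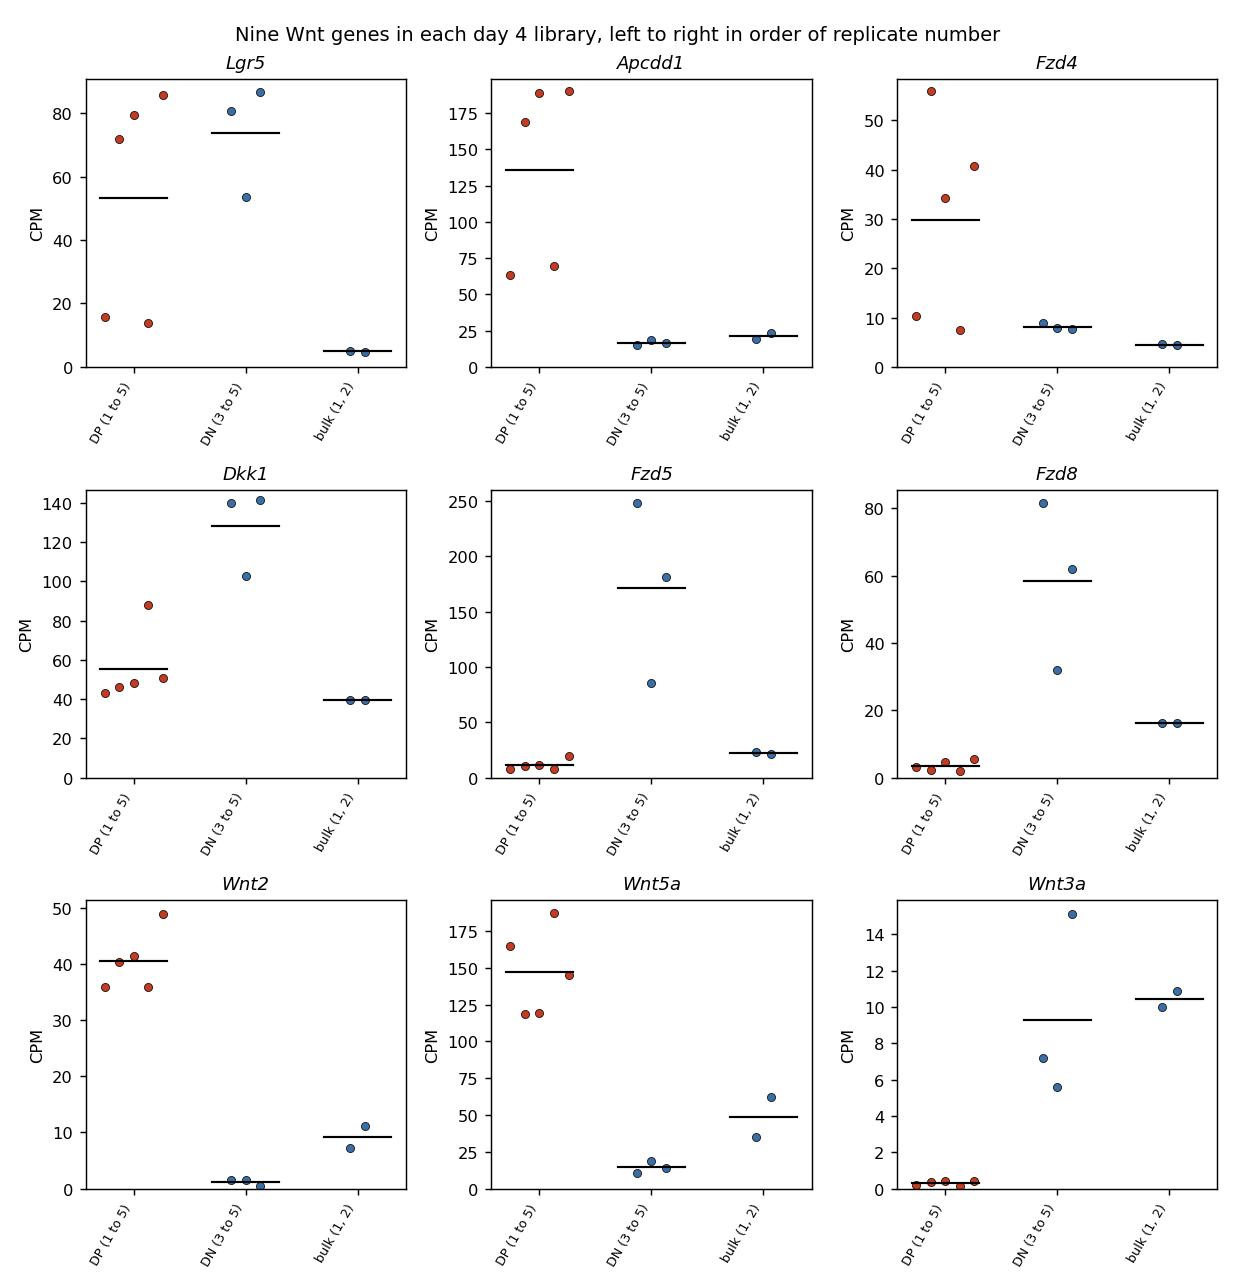
CPM of 9 Wnt genes in every day 4 library (red DP, blue DN and bulk, points within a group in order of replicate number, line the group mean, linear axes starting at 0). Wnt2 and Wnt5a are high and Wnt3a, Fzd5 and Fzd8 low in all 5 DP libraries, whereas Lgr5, Apcdd1 and Fzd4 are lower in DP libraries 1 and 4 than in 2, 3 and 5.

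The 5 DP libraries were not alike. Lgr5 was at 15.8 and 13.8 CPM in DP libraries 1 and 4 but at 71.7, 79.6 and 85.8 CPM in libraries 2, 3 and 5. Fzd4 was at 10.3 and 7.48 CPM in libraries 1 and 4 and at 55.9, 34.2 and 40.8 CPM in the others, and Apcdd1 was at 63.1 and 69.9 CPM against 169, 189 and 190 CPM. Frzb ran opposite, at 172 and 163 CPM in libraries 1 and 4 and at 61.6, 54.5 and 80.8 CPM in the others. Lef1, by contrast, was at 220, 179, 191, 227 and 265 CPM in libraries 1 to 5, and Wnt2 between 35.9 and 49.0 CPM. Early streak markers were higher in the same libraries 1 and 4: Mixl1 was at 237 and 489 CPM there and between 64.9 and 105 CPM in the others. The nascent and cardiac mesoderm markers were split. Hand1 was at 113 and 118 CPM in libraries 1 and 4 and between 268 and 403 CPM in the others, and Foxf1 was also lower there. Mesp1, Gata4, Kdr and Pdgfra were instead higher in libraries 1 and 4 (Gata4 464 and 513 CPM, against 289 to 352 CPM in the others). Snai1 overlapped between these libraries and the others. These libraries are replicates by their labels, they were not regrouped for any test, and the part of these markers was not tested. The comparisons with DN and with bulk each use 1 of the libraries with low Lgr5, and Lgr5 was not called between DP and DN.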

How the data were processed

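Polyadenylated RNA of 36 libraries was sequenced, and the authors deposited for each library a file of whole-number read counts per gene, with no normalization. Trimmomatic, STAR, HTSeq, DESeq2 and the build mm10 are named in the submitters' processing notes, without versions, and how strand was treated in counting is not given in the sources used here. Of the 49671 identifiers 49326 were matched to a symbol in GENCODE M21. Rows without a gene were left out of totals. They held between 3.81 and 11.7 (no feature) and between 4.22 and 5.64 (ambiguous) reads per 100 gene-assigned reads. CPM is a count divided by the library's gene total, and CPM per kb divides that by exon length. Intervals for counts at 0 use 3 counts and cover counting error only.

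Groups came from the sample titles. Each comparison was tested with edgeR 4.0.16 (quasi-likelihood F test, TMM scaling, filterByExpr, limma 3.58.1, R 4.3.3) on all genes that passed the filter, with Benjamini-Hochberg adjustment over all of them and a threshold of 0.05. Dox at 24 h and time used the libraries of batches 1 and 2 with a batch term, and batch 3, 2i, DP against DN and DP against bulk were fitted apart. The fits were tested on simulated counts. Alternatives were RLE scaling, library totals, no filter, DESeq2 1.42.0, no batch term, each batch alone, all 5 DP libraries against DN, DP libraries 3 to 5 against bulk, a replicate block and each library left out. DP and DN libraries of the same number varied together (correlations of their deviations 0.446, 0.594 and 0.564 for numbers 3, 4 and 5), so the numbers were taken to pair them.

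The members, the wider Wnt list of 62 genes and the marker lists were chosen with earlier results of these data known. Called members are named, with up to 8 of the largest log2 fold changes in each direction in full. Exon length shared with another annotated gene was 38.1% for Notum, 17.8% for Fzd5, 16.1% for Sfrp2, 15.1% for Ctnnb1, 13.7% for Lef1, 13.1% for Rspo3 and 8.8% for Wnt11, and at most 6.6% for each of the other members, so counts of these genes are less certain.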

Additional observations from a re-analysis of the deposited data

Results flagged for a closer look

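In 108 sets of 4 or 5 libraries (1 gene in 1 group), 8 held a library far from the others, where chance gives about 1 in 20. In batch 2 at 24 h with dox these were Fzd1 in library 1 (45.9 CPM, above the others), Sfrp1 in library 2 (85.2 CPM, below the others) and Wnt10a in library 2 (0.0809 CPM). In DP cells they were Dkk1 in library 4 (87.9 CPM, above the others), Wnt10b in library 4 (0.299 CPM), Wif1 in library 2 (0.201 CPM), Wnt7b in library 2 (0.101 CPM) and Wnt10a in library 5 (0.0825 CPM). The last 4 and Wnt10a in batch 2 stand for a few reads each.

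The effect of dox differed between 12 h and 24 h for Fzd4 (difference 2.00 on the log2 scale) and Fzd6 (−1.25), as tested in the report. Between batch 2 and batch 1 it differed for Wnt2 (3.92), Wnt5a (3.70), Frzb (3.90), Wnt2b (3.12), Dkk1 (2.83), Fzd1 (2.12) and Sfrp1 (1.62). The causes were not tested.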

How the results depend on the processing

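The direction held for every called member under every alternative run, except that Axin2 in DP against bulk was 0.0036 with DP libraries 3 to 5. Calls held under all alternatives for 25 of 36 called members for dox at 24 h, 5 of 12 at 12 h, 0 of 2 for the change between them, 1 of 7 between batches, 8 of 26 over time, 17 of 25 for DP against DN and 13 of 37 for DP against bulk. The cause of a changed count was not tested where none is given. For dox at 24 h, batch 1 alone (4 libraries at 24 h) gave 13 higher. At 12 h, no filter gave 17 higher and 8 lower and DESeq2 5 lower. For the change from 12 h to 24 h, library totals gave 2 and 2, no filter 4 and 9, DESeq2 2 and 3 and batch 1 alone 3 and 9. Between batches, no filter gave 14 higher. Over time, batch 2 alone (fewer libraries) gave 9 higher and 0 lower. Counts over all genes moved by more than 1.5 times for dox at 24 h (5584 as fitted, 3118 in batch 2 alone) and at 12 h (1052, and 1628 with no filter), for the change between them (97, and 873 with no filter, 488 by DESeq2, 309 with the block, 638 in batch 1 alone), between batches (117, and 514 with no filter, 260 by DESeq2, 443 with the block), over time (4675, and 2089 with no batch term, 658 in batch 2 alone), in 2i (0, and 18 with no filter, 47 by DESeq2) and for DP against DN (4318, and 7254 with the block). For DP against bulk, no filter gave 9 higher and DP libraries 3 to 5 gave 10 lower.

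With single libraries left out, members higher and lower ranged over 18 to 20 and 12 to 18 for dox at 24 h, 5 to 9 and 1 to 2 at 12 h, 0 to 2 and 0 to 2 for the change between them, 1 to 10 and 0 to 1 between batches, 21 to 23 and 1 to 3 over time, 9 to 14 and 10 to 16 for DP against DN, and 5 to 19 and 13 to 21 for DP against bulk. For Zic2 KO and for 2i they stayed at 0 and 0. Genes of any kind called ranged over 423 to 693 at 12 h, 1 to 249 for the change between them, 22 to 237 between batches and 4903 to 12394 for DP against bulk (10010 as fitted, with 4903 and 5009 without bulk library 1 or 2). Where this left 1 library in a group, that library is assumed to vary like the others.

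A replicate block changed no other count by more than 1.5 times than these: 2 higher and 3 lower for the change from 12 h to 24 h, 11 higher between batches, and 1 higher (Wnt11, 1.90, edgeR adjusted p = 2.63e-06) and 2 lower (Sp5, −1.58, edgeR adjusted p = 3.16e-05, and Fzd10, −0.39, edgeR adjusted p = 0.0398) in 2i, where the 2 pairs correlate at 0.837 and 633 genes were called. At 12 h, where same-numbered libraries correlate at 0.652, it no longer called Lgr5 (edgeR adjusted p = 0.0501) and called Wnt16, Tcf7 and Fzd10. It gave 11 higher and 19 lower for DP against bulk. The numbers of those libraries correlate at −0.133, and the crossed pairing, chosen after seeing the data, gave 14 higher and 19 lower. Same-numbered dox and no dox libraries at 24 h correlate at 0.786 in batch 1 and at −0.0265 and −0.041 in batch 2. Members at a few counts (Wnt1, Wnt10a, Dkk2, Wnt7a) are limited by depth.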

Other observations

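The 2i libraries differed between replicate numbers for several members, whatever the dox state. Dkk3 was at 2.91 CPM with dox and 3.57 CPM without in replicate 1 and at 18.8 CPM with dox and 19.9 CPM without in replicate 2. Wnt4 was at 0.104 CPM with dox and 0.218 CPM without in replicate 1, against 3.30 and 2.81 CPM with and without dox in replicate 2. Wnt7b was at 2.65 CPM with dox and 3.28 CPM without in replicate 1 and at 7.44 CPM with dox and 8.84 CPM without in replicate 2. These values were picked after they were seen.

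Among the low ligands on day 4, Wnt10b was at 0.0791 to 0.299 CPM in DP libraries 3 to 5 and at 0.614 to 1.46 CPM in DN, and it had too few reads to be tested there.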
